A study of Arabidopsis thaliana with 9 samples.

Results

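The restorer-of-fertility-like (RFL) group of pentatricopeptide repeat (PPR) genes of Arabidopsis thaliana was followed by 30 gene identifiers, out of 37184 genes in the deposited tables. Of these, 24 lie in clusters on chromosome 1, with 4 identifiers that start with AT1G12 and 20 that start with AT1G62, AT1G63 or AT1G64. The other 6 (AT1G06580, AT3G16710, AT3G22470, AT4G26800, AT5G16640 and AT5G41170) are scattered copies. The members are listed by identifier. Small RNA had been sequenced from 3 libraries of wild-type Col-0 and 3 of dxo1-2, which carries an allele of DXO1, and RNA-seq of total RNA after ribosomal RNA removal came from 3 further dxo1-2 libraries. All plants were seedlings of 21 days, kept 2 days at 4 °C before growth on soil with a day of 16 h light and a night of 8 h, and no treatment is named. The labels do not describe the lesion of the allele or the number of lines behind it, and the series' design text calls the replicates biological. Wild-type RNA-seq was not analysed here, so the genotypes are compared in small RNA only.

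PPR proteins bind RNA in mitochondria and plastids through tandem repeats, each of which contacts about a single base. RFL proteins are the subgroup related to the restorers that undo cytoplasmic male sterility in crops, and in Arabidopsis several of them are needed to form the 5′ ends of mitochondrial transcripts. Their messenger RNAs are known sources of secondary siRNAs: a microRNA or a trans-acting siRNA directs a cut, RDR6 and SGS3 make the cut RNA double-stranded, and DCL4 dices it. Because the copies are alike in sequence, an siRNA made from one of them can match several others. The tables hold counts per gene without read lengths or strands, so the values below are small RNA counts and are not resolved into siRNA classes.

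The Col-0 small RNA libraries held 3976221 to 4393015 counts on genes, the dxo1-2 ones 5022945 to 5698185, and the RNA-seq libraries 60138933 to 71210737. DXO1 itself had 1.51 ± 0.222 CPM (counts per 1000000 of the TMM-scaled library, mean ± SD, n = 3) in dxo1-2 RNA-seq, which without a wild-type level checks nothing about the genotype. Summed over 5 leaf markers the RNA-seq level was 9351 to 11905 CPM per library. Summed over 4 flower markers it was 0.606 to 1.11 CPM, with 0 of the 4 at 0 in every library, and over 4 root markers 168 to 191 CPM, nearly all from PYK10. In whole plants, fewer cells of a type and less RNA per cell cannot be told apart.

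All 30 members had small RNA counts, from 25 (AT4G26800) to 84157 (AT1G63130) over the 6 libraries. The family made up 2.70% ± 0.273 of gene counts in Col-0 and 2.71% ± 0.150 in dxo1-2 (SD, n = 3 each), so its share of all small RNA on genes did not separate the genotypes. The counts were uneven: 14 members, all of them in the AT1G62 to AT1G64 cluster, had at least 1000 counts in every library and held 96.8% to 97.4% of the family's counts. These shares are of counts and are not corrected for gene length.

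**Figure D1:**
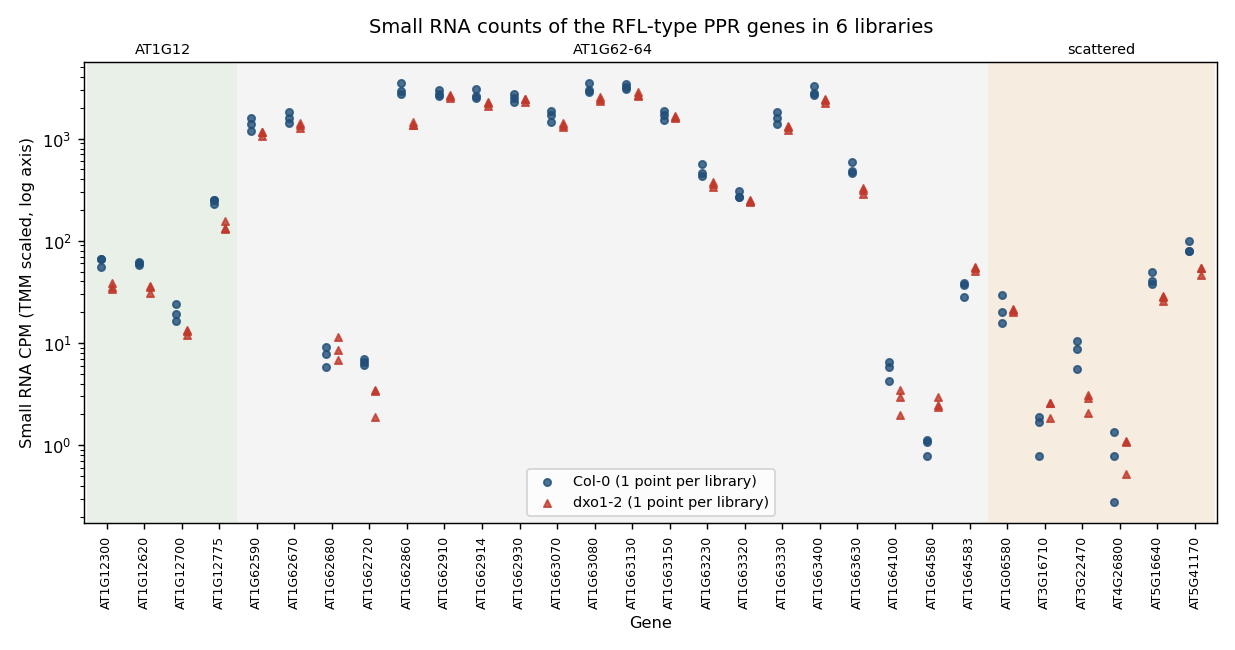
Small RNA CPM (TMM scaled, log axis) of each member, with 1 point per library for Col-0 (circles) and dxo1-2 (triangles) and shading by genomic set. The AT1G62 to AT1G64 set spans from 0.988 CPM (AT1G64580, Col-0 mean) to 3239 CPM (AT1G63130), while the AT1G12 and scattered members stay at or below the level of AT1G12775.

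With TMM scaling, which sets libraries on a common scale by trimming extreme genes, most tested members were lower in dxo1-2. In the quasi-likelihood test of edgeR with Benjamini-Hochberg adjustment over all genes, 28 of the 30 members passed the filter on low counts, and 21 of them were lower and 2 higher at an adjusted p under 0.05. Over all 11534 tested genes, 23.0% were lower and 26.8% higher. The members' median log2 fold change (dxo1-2 over Col-0) was -0.32, against -0.019 for all tested genes. Every dxo1-2 library lay under every Col-0 library in 21 of the 28, beside 27.1% of all tested genes, and over it in 2, beside 31.1%. AT3G16710 and AT4G26800 were too low to be tested. Without dxo1-2 replicate 1 the lower members numbered 12, beside 2333 of the 11920 genes tested in that run. The calls lost were those of AT1G64100 and 8 members of the AT1G62 to AT1G63 range (AT1G62590, AT1G62670, AT1G62914, AT1G63070, AT1G63130, AT1G63320, AT1G63330 and AT1G63400), at adjusted p values from 0.0538 to 0.125.

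**Figure D2:**
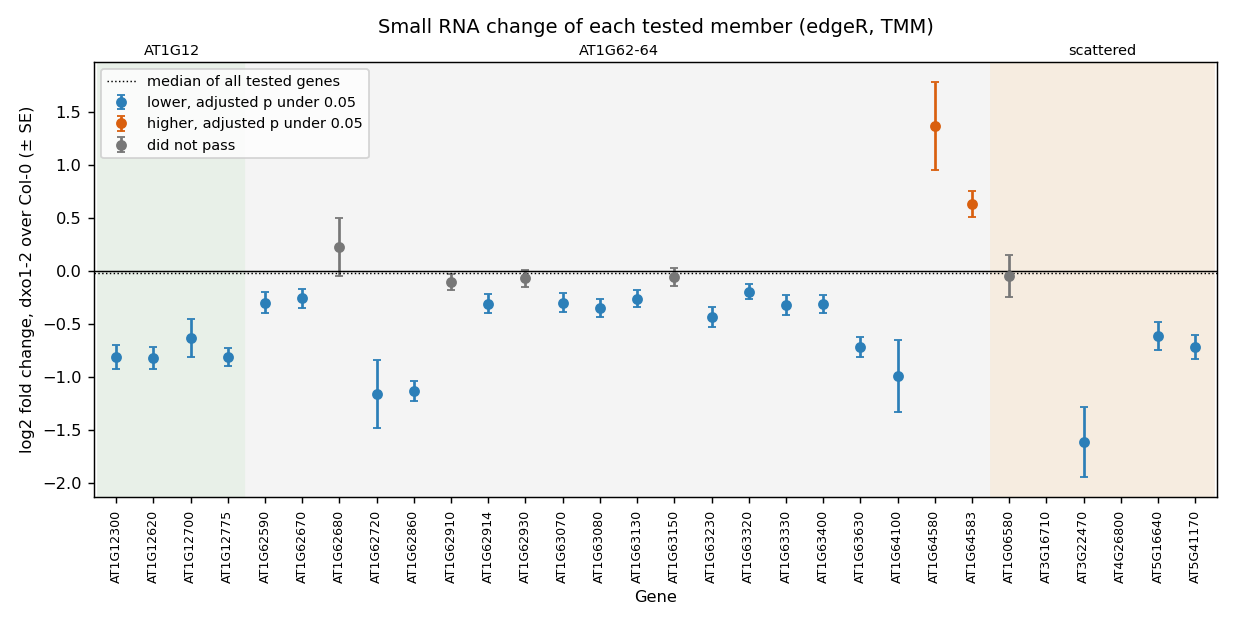
Log2 fold change of small RNA counts, dxo1-2 over Col-0, for the 28 tested members (points, bars are ± 1 approximate standard error), with genes ordered by set and the dotted line at the median of all tested genes. AT3G16710 and AT4G26800 have no point because they were not tested. Most members lie below the dotted line, AT3G22470 is lowest and AT1G64580 and AT1G64583 lie above it.

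The sign of the family's median change rested on the scaling, and the median of all tested genes moved with it. With library totals alone the median of all genes was 0.31 and that of the members 0.011, and 8 members were lower and 2 higher, beside 7.17% and 40.3% of all tested genes. With all lines of the tables as library size, unassigned reads included, the median of all genes was 0.55 and that of the members 0.26. Then 16 members were higher, beside 59.2% of all genes, and 3 lower, beside 4.35%. Relative to the median of all genes, the members' median was -0.30 with each of the 3 scalings, as a new library size moves all genes by nearly the same amount. It was -0.15 when genes had to have a mean of at least 50 counts (23 members tested) and -0.57 with no filter (30 members). Reads on genes were 22.2% to 23.7% of all lines in Col-0 and 26.5% to 27.5% in dxo1-2, and the part of this difference in the shift between scalings was not tested. AT1G12775, AT1G62860 and AT3G22470 were lower, and AT1G64580 and AT1G64583 higher, under all 3 scalings, which shared a filter. AT1G64580 passed that filter through its dxo1-2 counts, and its call was lost with no filter (adjusted p = 0.0582).

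**Figure D3:**
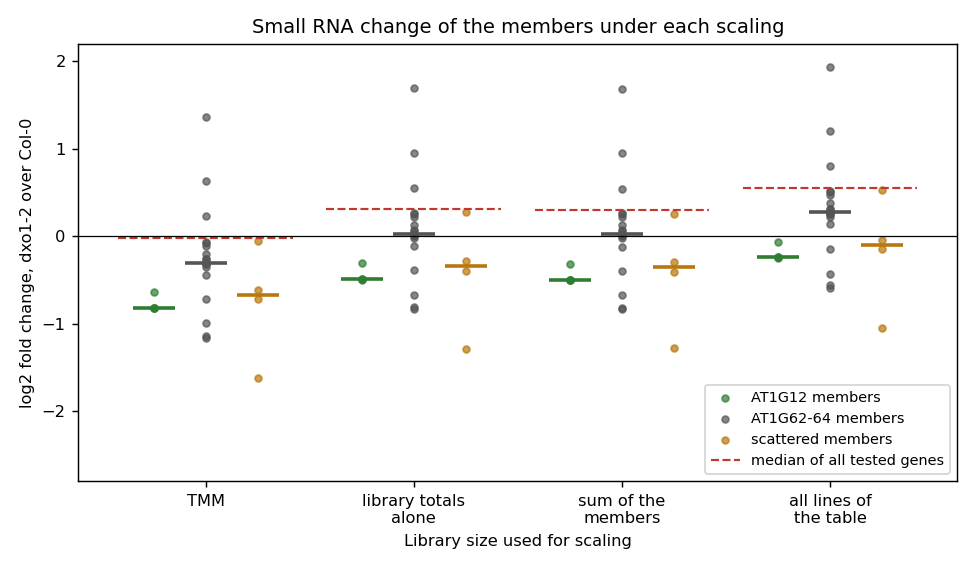
Log2 fold change of each tested member (points) by set under 4 library sizes, with short bars for the set medians and dashed lines for the median of all tested genes. The whole family shifts up together with the dashed line, and the set medians stay below it in each column.

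All 4 members of the AT1G12 cluster were lower in dxo1-2 with TMM, by close amounts, beside 23.0% of all tested genes. AT1G12775 had 253, 251 and 231 CPM in the Col-0 libraries and 130, 133 and 155 in dxo1-2, so the groups were apart. Its log2 fold change was -0.81 ± 0.082 (± is an approximate SE throughout for log2 fold changes; edgeR, adjusted p = 7.9e-06), and its annotation overlaps that of a neighbouring gene. AT1G12620 had 58.0, 60.2 and 62.1 CPM in Col-0 and 30.6, 35.8 and 35.7 in dxo1-2 (log2 fold change -0.82 ± 0.10, adjusted p = 5.4e-05). Again every dxo1-2 library lay under every Col-0 library. AT1G12300 had 66.7, 55.7 and 66.1 CPM in Col-0 and 33.5, 38.3 and 35.5 in dxo1-2 (-0.81 ± 0.11, adjusted p = 8.3e-05). RPF1 (AT1G12700), needed for 5′ processing of the mitochondrial nad4 transcript, went from 19.9 ± 3.98 to 12.8 ± 0.797 CPM (-0.63 ± 0.18, adjusted p = 0.0125). With all lines as library size these 4 had log2 fold changes of -0.25 to -0.06, and only AT1G12775 passed, while RPF1 did not pass with library totals alone either.

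In the AT1G62 to AT1G64 cluster 14 of 20 members were lower and 2 higher, beside 23.0% and 26.8% of all tested genes. The set's median was -0.30, a sign that turned to 0.027 with library totals alone. Of the 2 higher members, AT1G64580 passed the filter through its dxo1-2 counts. The highest counts belonged to AT1G63130, annotated as RNA processing factor 6 (RPF6), with 3074, 3445 and 3198 CPM in Col-0 and 2588, 2678 and 2838 in dxo1-2. Its groups did not overlap but lay close, and its call (-0.26 ± 0.077, adjusted p = 0.0136) was lost without dxo1-2 replicate 1 or 2 (0.0671 and 0.0581). AT1G63080 had 2861, 3470 and 3024 CPM in Col-0 and 2348, 2453 and 2542 in dxo1-2 (-0.35 ± 0.085, adjusted p = 0.00480). Library totals alone put it at -0.023 and ended the call (adjusted p = 0.899). RPF2 (AT1G62670), which acts on cox3 and nad9 transcripts in mitochondria, went from 1610 ± 201 to 1347 ± 70.9 CPM (-0.26 ± 0.091, adjusted p = 0.0327), and its call was lost without Col-0 replicate 2 (0.0895) and without each of the dxo1-2 replicates (0.125, 0.0858 and 0.0671). AT1G62590, annotated as a PPR protein with adenylate cyclase activity, and AT1G62914, AT1G63070, AT1G63330 and AT1G63400 lay between -0.32 and -0.30. These 8 genes are among the 21 with every dxo1-2 library under every Col-0 library with TMM. None of the 8 was called lower with library totals alone or when genes had to have a mean of at least 50 counts (adjusted p in the latter from 0.110 for AT1G63080 to 0.390 for RPF2). With all lines as library size all 8 were called higher instead, beside 59.2% of all tested genes. Their adjusted p values there ran from 0.00662 (AT1G63130) to 0.0496 (AT1G63080).

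RPF3 (AT1G62930), which acts on the mitochondrial ccmC transcript, did not pass, with 2306, 2728 and 2489 CPM in Col-0 and 2297, 2418 and 2450 in dxo1-2 (-0.07 ± 0.080, adjusted p = 0.484). AT1G62910, annotated as Rf-like 9, and AT1G63150 did not pass either, at -0.10 ± 0.077 and -0.06 ± 0.083. The groups of these 3 genes overlapped with TMM. With all lines as library size RPF3 (adjusted p = 0.000234), AT1G62910 (0.000342) and AT1G63150 (0.000221) were called higher, beside 59.2% of all tested genes. With the members' own summed counts as library size, RPF3 (adjusted p = 0.0482) and AT1G63150 (0.0366) were higher and AT1G62910 was not called (0.0873). This scaling, chosen after the data were seen, shows each member's change against the family's sum. AT1G62860 fell from a mean of 10.2% to 5.78% of that sum, which by arithmetic raises the summed part of the other members. How much of these rises came from it was not tested. RPF3 held 8.29% ± 0.192 of the family's counts in Col-0 against 9.89% ± 0.0834 in dxo1-2. AT1G63150 went from 5.60% ± 0.244 to 6.74% ± 0.157, and AT1G62910 from 9.25% ± 0.102 to 10.8% ± 0.0931. These 3 shares did not overlap between genotypes, and neither did those of 14 other members. Over the 30 members, 8 shares were higher and 9 lower in every dxo1-2 library. Such separation was common: with TMM CPM, 31.1% of all tested genes were higher and 27.1% lower in every dxo1-2 library.

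The transcribed pseudogene AT1G62860 had 3504, 2945 and 2750 CPM in Col-0 and 1361, 1374 and 1452 in dxo1-2, which put every dxo1-2 library far under every Col-0 one (-1.14 ± 0.092, adjusted p = 1.1e-06). It fell more than any other member with at least 1000 counts in every library, so that 12.3%, 8.98% and 9.36% of the family's counts in the Col-0 libraries became 5.88%, 5.66% and 5.81% in dxo1-2. It was also lower with all lines as library size, at -0.56. AT1G63630, which overlaps another gene, had 585, 485 and 456 CPM in Col-0 and 312, 287 and 330 in dxo1-2 (-0.72 ± 0.094, adjusted p = 7.2e-05), a call lost with all lines as library size (0.240). AT1G63230 was lower by less, at -0.44 ± 0.096 (adjusted p = 0.00252), and was not called with library totals alone. The ratio of AT1G63230 to AT1G63630 counts was 0.941 to 0.961 in Col-0 and 1.15 to 1.16 in dxo1-2.

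With the summed counts of the members as library size, 7 members were lower and 4 higher, beside 6.96% and 39.3% of all tested genes. The 7 were AT1G12300, AT1G12620, AT1G12775, AT1G62860, AT1G63630, AT3G22470 and AT5G41170. The 4 were RPF3, AT1G63150, AT1G64580 and AT1G64583.

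**Figure D4:**
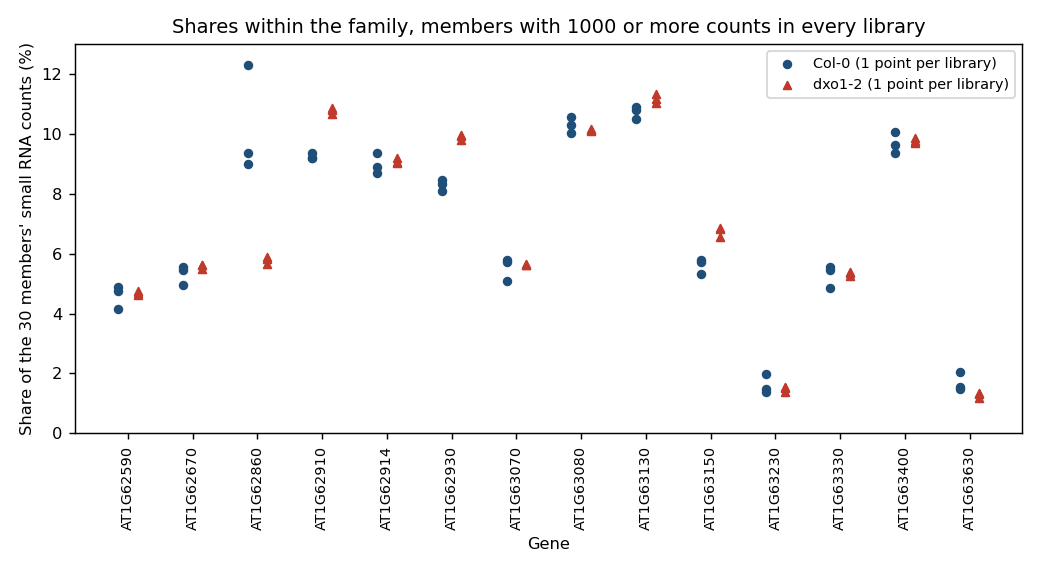
Share of the 30 members' summed small RNA counts held by each of the 14 members with at least 1000 counts in every library (vertical axis in percent from 0, 1 point per library). AT1G62860 drops from 8.98% to 12.3% in Col-0 to below 6% in dxo1-2, and AT1G62910, AT1G62930 and AT1G63150 take larger shares.

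These loci cannot be read as independent measurements. Among the 14 members with at least 1000 counts in every library, 16 of 91 pairs kept a ratio of counts that varied by no more than 10% over all 6 libraries. Such ratios were not computed for pairs of other genes, so this count has no background beside it. AT1G62914 stood at 0.926 to 0.934 of AT1G63400 in every library, and AT1G62590 at 0.855 to 0.882 of AT1G63330. In Col-0, 11 of the 14 had their lowest count in replicate 1 and their highest in replicate 2, while AT1G62860, AT1G63230 and AT1G63630 had their highest in replicate 1. The line for reads with several matches held 0 in every small RNA table, and the labels do not say how such reads were assigned. How much of each gene's count came from reads that match other copies was not tested.

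The 3 members whose identifiers start with AT1G64 did not share a direction. AT1G64583 had 36.9, 38.4 and 28.0 CPM in Col-0 and 54.9, 51.1 and 53.8 in dxo1-2, higher in every dxo1-2 library (0.63 ± 0.12, adjusted p = 0.00124). It passed under each alternative run. AT1G64580, which lies next to it, rested on few reads, 4, 3 and 4 in the Col-0 libraries against 16, 13 and 17. It passed the filter through its dxo1-2 counts (1.37 ± 0.42, adjusted p = 0.0166). That call was lost with DESeq2 (0.0997) and with no filter (0.0582). It was also lost when replicate 1 (0.0511) or 2 (0.0857) of Col-0 or replicate 3 of dxo1-2 (0.0729) was left out. AT1G64100, which overlaps another gene, was lower from 5.56 ± 1.18 to 2.80 ± 0.750 CPM (-0.996 ± 0.34, adjusted p = 0.0287). Its call was lost without any 1 of the libraries except Col-0 replicate 3 and dxo1-2 replicate 2. AT1G62720 (NG1), also overlapping another gene, was lower from 6.55 ± 0.408 to 2.91 ± 0.875 CPM (-1.16 ± 0.32, adjusted p = 0.0101), lost without dxo1-2 replicate 3 (0.0514). AT1G62680 did not pass (0.23 ± 0.27, adjusted p = 0.508). AT1G63320 passed narrowly (-0.20 ± 0.073, adjusted p = 0.0414), a call lost with RLE scaling (0.0566), DESeq2 (0.116) and no filter (0.162). It was also lost with a mean of at least 50 counts (0.544), without Col-0 replicate 2 (0.134) and without each of the dxo1-2 replicates. With all lines as library size AT1G63320 was called higher (adjusted p = 0.00101), beside 59.2% of all tested genes.

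Among the scattered copies, 4 of 6 were tested, 3 were lower and 0 higher with TMM, beside 23.0% and 26.8% of all tested genes. AT5G41170 had 98.9, 78.6 and 79.1 CPM in Col-0 and 54.5, 46.6 and 54.4 in dxo1-2 (-0.72 ± 0.11, adjusted p = 0.000237). AT5G16640 had 37.8, 40.2 and 49.8 CPM in Col-0 and 29.1, 25.7 and 28.4 in dxo1-2 (-0.62 ± 0.13, adjusted p = 0.00200). Both were apart between genotypes, but AT5G16640 was not called with library totals alone, nor either of them with all lines as library size. AT3G22470, annotated as PPR3 and overlapping another gene, had 5.56, 10.5 and 8.79 CPM in Col-0 and 3.06, 2.92 and 2.08 in dxo1-2. From these low counts (20, 40 and 33 against 20, 16 and 12) its log2 fold change was -1.62 ± 0.33 (adjusted p = 0.00166). AT1G06580, annotated as PPR1, had 29.4, 15.5 and 20.0 CPM in Col-0 and 20.2, 21.5 and 20.9 in dxo1-2, overlapped fully and did not pass (-0.05 ± 0.20, adjusted p = 0.855). AT3G16710, annotated as PPR4, was covered by 6, 3 and 7 reads in Col-0 against 12, 14 and 15, and AT4G26800 by 1, 3 and 5 against 7, 6 and 3.

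Set side by side, the clustered copies had a median log2 fold change of -0.31 (24 tested, 18 lower, 2 higher) and the scattered ones -0.67 (4 tested). Over all tested genes 23.0% were lower and 26.8% higher. Without the filter on low counts, which brings in AT3G16710 and AT4G26800, the medians were -0.28 and -0.30. The difference between the sets was not tested, and it rested on which scattered copies were counted. Inside the clusters, with the filter, the AT1G12 set (median -0.81) and the AT1G62 to AT1G64 set (-0.30) lay farther apart than the clustered and scattered sets. Without the filter the medians of the AT1G12 and AT1G62 to AT1G64 sets were -0.78 and -0.27, again farther apart than the clustered and scattered ones. The 14 members with at least 1000 counts in every library had a median of -0.31, and the 14 other tested members -0.68. Of these 14, the 6 in the AT1G62 to AT1G64 cluster had a median of 0.017.

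In dxo1-2 RNA-seq the 30 members had a summed level of 96.4 ± 4.67 CPM (n = 3). AT1G63130 had 8.90, 9.48 and 9.24 CPM and AT1G64580 had 8.70, 8.05 and 8.63. These 2 were the highest by count, although levels of different genes are not compared here because no gene length was used. At the other end, AT1G63320 had 0 counts in all 3 libraries, which allows up to 0.0423 to 0.0505 CPM (3 counts per library, counting error only). AT1G63330 had 0, 2 and 0 counts and AT1G63070 had 17, 5 and 0. The same 3 genes held 7949, 7149 and 7715 small RNA counts in dxo1-2 (AT1G63330), 8490, 7478 and 8178 (AT1G63070) and 1562, 1328 and 1447 (AT1G63320). RNA-seq reads with several matches stood in a line of their own, 10.5% of all lines on average, and so in no gene's count, while that line was 0 for small RNA. What share of the small RNA counts of these 3 genes came from other copies was not tested.

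The ratio of a gene's small RNA CPM to its own RNA-seq CPM in dxo1-2 needs no gene length, but such reads are missing from its RNA-seq side. Over the 21 clustered copies with RNA-seq counts in every library, its median was 190, with a range from 0.306 (AT1G64580) to 2376 (AT1G62910). Over the 6 scattered copies the median was 5.08, from 0.574 (AT3G16710) to 13.5 (AT5G41170). The 4 AT1G12 members, from 3.11 (RPF1) to 38.6 (AT1G12775), had a median of 7.90, and the ratios above these belonged to the AT1G62 to AT1G64 set. Across the 30 members, small RNA and RNA-seq CPM in dxo1-2 had a Spearman rho of 0.060, as a description of genes that share reads and libraries.

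**Figure D5:**
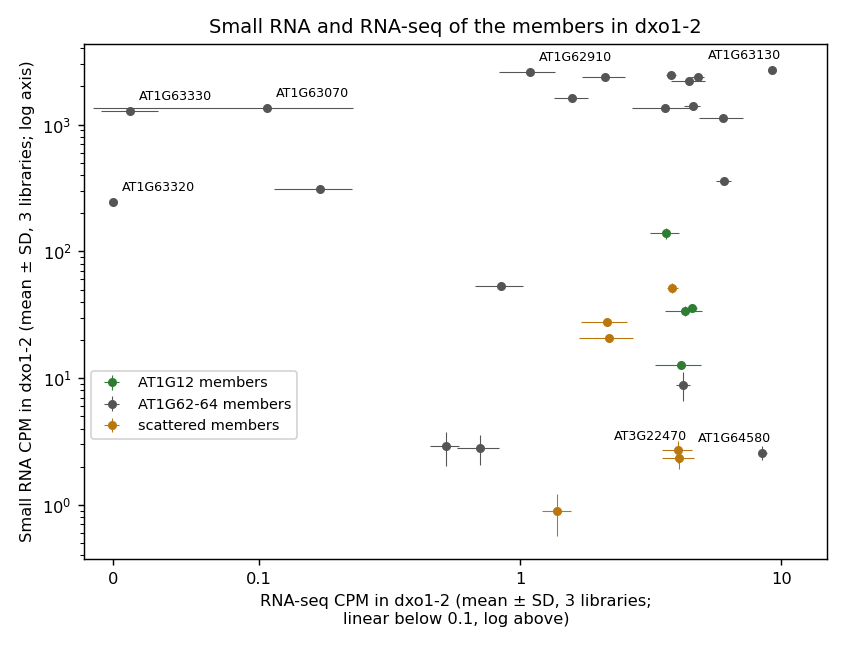
Small RNA CPM (log axis) against RNA-seq CPM (linear below 0.1, log above) of the 30 members in dxo1-2, as means ± SD of 3 libraries each, coloured by set. AT1G63320, AT1G63330 and AT1G63070 combine high small RNA with RNA-seq at or near 0, and AT1G64580 shows the opposite.

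The small RNA counts within the large cluster lay on the RFL genes more than on the genes between them. The 246 other genes between AT1G62590 and AT1G64583 together held 0.186% ± 0.0105 of gene counts in Col-0 and 0.203% ± 0.00785 in dxo1-2, against 2.65% ± 0.273 and 2.67% ± 0.147 for the 20 members. The 3 of them with the most counts were AT1G64420, a tRNA gene, AT1G63750 and the pseudogene AT1G64410. Of the 62 tested, 18 were higher and 17 lower, beside 26.8% and 23.0% of all tested genes, with a median log2 fold change of -0.028. Between the ends of the AT1G12 cluster lay 58 other genes, of which 12 were tested, 7 higher and 0 lower (median 1.56), beside 26.8% and 23.0% of all tested genes. Without the filter the median over the 50 with any count was 0.78, beside 0.28 for all genes. Outside the members, 8 genes carry a PPR name in the annotation used. PPR336 (AT1G61870) was the only one tested, with 0, 3 and 1 counts in the Col-0 libraries against 27, 15 and 30. It passed the filter through its dxo1-2 counts, so that it was tested because it was high there. Without the filter the 8 genes had a median of 0.44.

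Of 14 genes of the pathway that makes secondary siRNAs, 4 had enough small RNA counts to be tested, and 2 were higher and 1 lower, beside 26.8% and 23.0% of all tested genes. These values are small RNA counts on the genes and not their expression. AGO1, the main slicer guided by microRNAs, went from 41.2 ± 1.80 to 193 ± 11.1 CPM (2.22 ± 0.085, adjusted p = 1.4e-09). TEX1, a subunit of the THO complex that handles RNA precursors of trans-acting siRNAs, had 1.39, 1.31 and 2.66 CPM in Col-0 and 4.90, 5.66 and 3.81 in dxo1-2 (1.40 ± 0.39, adjusted p = 0.0101). It overlaps another gene and passed the filter through its dxo1-2 counts, from 5, 5 and 10 counts in Col-0 against 32, 31 and 22. DCL4, the dicer of secondary siRNAs, had 14.7, 7.89 and 6.93 CPM in Col-0 and 4.90, 5.84 and 5.19 in dxo1-2 (-0.89 ± 0.31, adjusted p = 0.0312). Its counts before scaling, 53, 30 and 26 against 32, 32 and 30, overlapped, and Col-0 replicate 1 stood above the rest. DCL1 did not pass (0.26 ± 0.16). Calls of the pathway genes under other library sizes or with 1 library left out are not given here. In dxo1-2 RNA-seq all 14 were detected, among them RDR6 at 16.2 ± 0.961, SGS3 at 6.24 ± 0.815 and DCL4 at 23.3 ± 1.34 CPM (n = 3).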

How the data were processed

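The authors deposited raw counts for every gene, in 1 table for each library that ends with 5 summary lines. The submitters' processing notes name build TAIR10 and the tools Bowtie, HISAT2, bedtools, HTSeq and DESeq2, while roles, versions, the strand setting and the treatment of reads with several matches are not given in the sources used here. Summary lines entered no test and, except in 1 alternative, no library size. Names, overlaps and neighbours came from a RefSeq table of TAIR10.1 that matched all 30 members and 36899 of 37184 genes. Its positions set which genes overlap and which lie between the ends of the clusters, and it was used for no gene length.

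Small RNA was tested with edgeR 4.0.16 in R 4.3.3 (TMM, filterByExpr with a minimum count of 10, genotype only, two-sided quasi-likelihood test, Benjamini-Hochberg at 0.05, prior count 0.125). The SE is approximate: the size of the log2 fold change divided by the root of the test's F. Alternatives used DESeq2 1.42.0, limma-voom 3.58.1, other library sizes, other filters, the replicate number as a block and 1 library left out. On data simulated for this comparison (11395 genes tested), the test called 60.8% of 97 genes with a log2 change of 1, 89.8% of 98 with a change of 2 and 0.0536% of 11200 without change. In the simulation few genes changed, equally up and down, and each gene was drawn independently. In the real data many genes were called and members may share reads. The simulated rates therefore do not cover errors from the scaling or small changes such as those of most members. RNA-seq was described without a test. MicroRNA loci were not analysed here.

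Members and lists were chosen with earlier results of these data known. Named in full were, for each set, the 2 members highest in small RNA CPM and the 2 with the smallest adjusted p, the 2 highest in RNA-seq, any member called higher, and pathway genes past the threshold. Further members were named after their values were seen. CPM means ± SD are over 3 libraries.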

Additional observations from a re-analysis of the deposited data

How the results depend on the processing

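Depth limits the members with few counts most, and 2 of 30 could not be tested. RLE scaling, TMM without rRNA and tRNA genes and limma-voom kept both counts of called members within 1.5 times. Library totals alone gave 4649 higher and 827 lower genes over the whole table, and all lines as library size gave 6828 and 502. A mean of at least 50 counts, which leaves fewer genes to test, gave 1435 and 1286.

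The higher members numbered 16 with all lines, 4 with the members' summed counts as library size (chosen after the data were seen), and 1 with no filter, with a mean of at least 50 counts, with DESeq2, with the replicate block and without members whose counts match another gene. The lower members numbered 8 with library totals alone, 3 with all lines, 7 with the members' sum and 9 with a mean of at least 50 counts. With 1 library left out they numbered 12 to 21, and the higher ones 1 to 2. Over all tested genes the same runs gave 1975 to 3109 lower and 2576 to 3645 higher.

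The clustered median was 0.015 with library totals alone, 0.26 with all lines, -0.16 with a mean of at least 50 counts, 0.016 with the members' sum and -0.42 to -0.24 with 1 library left out. The scattered median was -0.34, -0.094, -0.48 and -0.35 under the same 4 settings, -0.30 with no filter, -0.62 without members that overlap another gene or with the AT1G64 members added, and -0.69 to -0.52 with 1 library left out. The summed RNA-seq level was 93.7 to 97.9 CPM with 1 library left out.

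Log2 fold changes changed sign as follows. With all lines they were 0.53 for AT1G06580, 0.27 for AT1G62590, AT1G62914 and AT1G63070, 0.32 for AT1G62670, 0.47 for AT1G62910, 0.50 for AT1G62930, 0.23 for AT1G63080, 0.31 for AT1G63130, 0.51 for AT1G63150, 0.14 for AT1G63230, 0.38 for AT1G63320 and 0.26 for AT1G63330 and AT1G63400. With library totals alone they were 0.28 for AT1G06580, 0.026 for AT1G62590, 0.069 for AT1G62670, 0.22 for AT1G62910, 0.018 for AT1G62914, 0.26 for AT1G62930, 0.028 for AT1G63070, 0.066 for AT1G63130, 0.27 for AT1G63150, 0.13 for AT1G63320, 0.0089 for AT1G63330 and 0.013 for AT1G63400. With the members' sum they were 0.26 for AT1G06580, 0.027 for AT1G62590 and AT1G63070, 0.069 for AT1G62670, 0.22 for AT1G62910, 0.018 for AT1G62914, 0.25 for AT1G62930, 0.061 for AT1G63130, 0.27 for AT1G63150, 0.13 for AT1G63320, 0.0095 for AT1G63330 and 0.013 for AT1G63400. With a mean of at least 50 counts they were 0.10 for AT1G06580, 0.042 for AT1G62910, 0.076 for AT1G62930 and 0.086 for AT1G63150. AT1G06580 also changed sign with limma-voom (0.0014) and without Col-0 replicate 1, with a range of -0.27 to 0.21 when 1 library was left out. The causes were not tested beyond the change of library size.

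Libraries with the same replicate number deviated from their group means with correlations of 0.115, -0.0971 and -0.037, so the numbers do not pair them. With the replicate number as a block, 1 member was higher and 20 lower, beside 2913 and 2571 of 11534 tested genes. The calls of AT1G64100 and AT1G64580 were lost in that run (adjusted p = 0.0504 and 0.0542).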
